A study of Mus musculus with 81 samples.

Results

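The T-cell receptor β (TCRβ) repertoires of the tumor and of the day 7 blood were compared within each of the 5 mice labelled 1e9 mRBC-OVA-4-1BBL-IL-12. Tumor and blood libraries were joined by the mouse number in their labels, which gave 5 pairs, or 10 of the 81 samples in the series. The animals were Pep Boy mice (B6.SJL-Ptprc<a> Pepc<b>/BoyJ), which carry CD45.1 on a B6 background. All of them had been injected in the flank with 2e6 EG7.OVA cells, a mouse lymphoma line that expresses ovalbumin (OVA). At a mean tumor volume of about 175 mm3 they were randomized and received 1e6 naïve OT-1 cells, and on days 0 and 3 they were dosed intravenously with engineered mouse red blood cells (mRBC) that presented an OVA peptide, 4-1BBL and IL-12. The groups set beside them were treated alike except for the dose, which was 2.5e8 cells of the same mRBC-OVA-4-1BBL-IL-12 (5 pairs) or 1e9 mRBC-CTRL, control red blood cells (4 pairs; the day 7 blood of mouse 1 was not analysed here). The labels give no age. Transferred OT-1 cells were thus present in every group, and blood DNA came from a small anticoagulated volume, whereas tumor DNA came from part of the dissociated tumor, with no sorting of T cells.

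Each T cell builds its TCRβ gene by joining a V, a D and a J segment, with bases trimmed from the ends and random N bases inserted at the junctions. The junction encodes CDR3, the loop that makes most of the contact with peptide, so a nucleotide rearrangement serves as a tag for a T-cell clone and its descendants. OT-1 cells all carry 1 transgenic receptor that recognizes an OVA peptide on H-2Kb, while the T cells of the recipient carry many. After an antigen-driven expansion, members of a clone can leave the lymphoid organs through the blood and enter a tumor, so a clone may be counted in both places.

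The rearrangements that the comparison turned on are shown with the V part in lower case and the CDR3 bases in capitals, from the conserved cysteine codon to the end of the read, which stops before the last CDR3 codon. OT-1 and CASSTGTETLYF are the clones that were set aside; the CDR3 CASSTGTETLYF was found in 15 of 15 tumors and in 3 of 28 blood libraries of the treatment experiment, with 1 template in each of the 3. After them come, for each mouse, the largest remaining rearrangement of the tumor and, for mice 2, 4 and 5, the largest that the day 7 blood lacked. The same V and J segments recur among them with different junctions.
OT-1 (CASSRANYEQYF, TCRBV12-01 and TCRBJ02-07): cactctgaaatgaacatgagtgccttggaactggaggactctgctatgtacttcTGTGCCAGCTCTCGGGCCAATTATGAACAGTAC
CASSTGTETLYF (TCRBV15-01 and TCRBJ02-03): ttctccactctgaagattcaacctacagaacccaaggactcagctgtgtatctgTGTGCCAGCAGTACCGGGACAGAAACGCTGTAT
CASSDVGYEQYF, tumor 1 (TCRBV13-03 and TCRBJ02-07): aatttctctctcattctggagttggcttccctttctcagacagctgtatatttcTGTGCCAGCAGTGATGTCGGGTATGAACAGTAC
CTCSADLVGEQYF, tumor 2 (TCRBV01-01 and TCRBJ02-07): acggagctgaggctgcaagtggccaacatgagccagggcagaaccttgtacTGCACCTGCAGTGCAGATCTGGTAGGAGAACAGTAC
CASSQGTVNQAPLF, tumor 3 (TCRBV02-01 and TCRBJ01-05): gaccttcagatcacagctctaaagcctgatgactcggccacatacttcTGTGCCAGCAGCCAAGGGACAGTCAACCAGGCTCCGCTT
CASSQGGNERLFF, tumor 4 (TCRBV05-01 and TCRBJ01-04): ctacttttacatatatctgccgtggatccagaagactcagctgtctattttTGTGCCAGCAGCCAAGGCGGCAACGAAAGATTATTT
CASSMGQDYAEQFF, tumor 5 (TCRBV19-01 and TCRBJ02-01): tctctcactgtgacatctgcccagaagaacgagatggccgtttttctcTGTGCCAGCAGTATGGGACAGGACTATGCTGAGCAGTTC
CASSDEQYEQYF, tumor 2 and not its blood (TCRBV13-03 and TCRBJ02-07): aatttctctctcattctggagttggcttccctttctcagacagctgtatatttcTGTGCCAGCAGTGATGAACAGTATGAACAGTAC
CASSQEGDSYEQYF, tumor 4 and not its blood (TCRBV02-01 and TCRBJ02-07): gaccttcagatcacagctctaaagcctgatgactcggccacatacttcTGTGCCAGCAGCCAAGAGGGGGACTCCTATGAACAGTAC
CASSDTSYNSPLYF, tumor 5 and not its blood (TCRBV13-01 and TCRBJ01-06): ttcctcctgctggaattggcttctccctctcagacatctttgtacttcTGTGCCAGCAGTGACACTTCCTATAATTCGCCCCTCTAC

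Productive (in-frame) templates, the counted copies of rearranged genes, numbered 6546 to 26014 per tumor (median 13443) and 2355 to 14181 per blood library (median 12688). Without OT-1 and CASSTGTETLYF, 832 to 4241 templates were left in tumors and 482 to 6579 in blood; these are called endogenous templates. Blood of mouse 5 was by far the shallowest, with 482 endogenous templates in 285 rearrangements, and tumor 2 came next with 832. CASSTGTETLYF had 95 to 1374 templates in the 5 tumors and 0 in the 5 blood libraries, which allows a share of up to 0.0212% to 0.127% of productive templates there. Tumor 2 stood apart in another way: 9 of its rearrangements, with 1 to 3 templates each, were held at a higher share by mouse 1, and 7 of these were among the 10 largest endogenous rearrangements of tumor 1. They made up 1.68% of its endogenous templates. Tumor 5 held 6 rearrangements of mouse 3 in the same manner (0.181% of templates). How they came to be in both mice was not tested, and clonality, shared rearrangements, calls of single rearrangements, tumor-only clones and V and J use were also computed without such rearrangements. For a share in a single library, the 95% Wilson interval is given, and a count of 0 is read as allowing up to 3 templates; both cover counting error only.

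OT-1 made up most productive templates in all 5 tumors and in 4 of the 5 blood libraries, and its share was higher in the tumor than in the blood in 4 of 5 mice. With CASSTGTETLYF left out of the denominator, the OT-1 share in tumor and blood was 77.5% and 65.9% in mouse 1, 87.1% and 66.4% in mouse 2, 67.3% and 58.1% in mouse 3, 82.8% and 48.1% in mouse 4, and 78.7% and 79.5% in mouse 5. Mouse 4 had the widest gap, with 95% intervals of 82.3% to 83.3% in the tumor and 47.3% to 49.0% in the blood. In mouse 5 the intervals of tumor (78.1% to 79.3%) and blood (77.9% to 81.1%) overlapped. Across mice the ranges of tumor and blood overlapped as well, since blood 5 lay above 3 of the tumors. The mean was 78.7% ± 7.39 in tumors and 63.6% ± 11.6 in blood (SD, n = 5), and the difference within mice was 15.1 percentage points ± 13.4 (SD, exact sign-flip test, 2-sided, p = 0.125). The smallest p that 5 pairs allow is 0.0625. Without rearrangements of 1 template the difference was 7.86 points ± 12.2 (exact sign-flip test, p = 0.312). Treated as unpaired, the same difference had p = 0.0476 (exact permutation test, no replicate block). Shares are relative, so more OT-1 cells and fewer other T cells cannot be told apart.

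**Figure D1:**
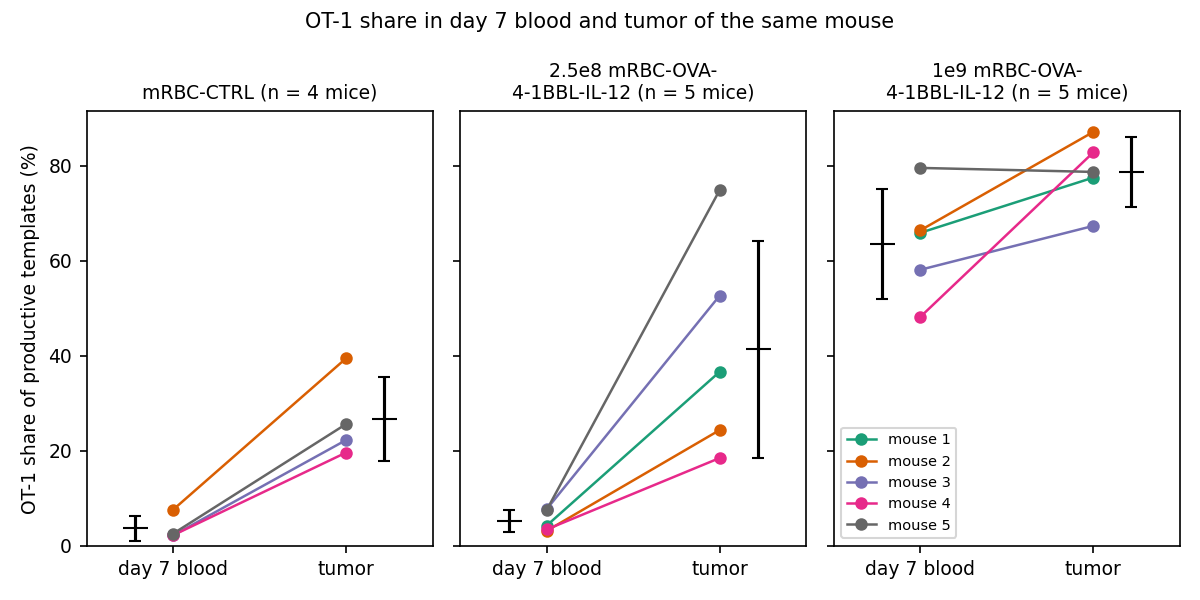
OT-1 share of productive templates without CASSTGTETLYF (y axis, %) in day 7 blood and tumor, with a line per mouse and a panel per group; black bars are mean ± SD. At 1e9 the lines start at 48.1% to 79.5% in blood, whereas they start at 3.62% (mean) in mRBC-CTRL mice and 5.20% at 2.5e8.

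Whether the tumor was enriched for OT-1 to a different degree at this dose was asked by comparing the change within mice between groups, and the answer depended on the scale and on the denominator. In percentage points, the tumor exceeded the blood by 15.1 ± 13.4 at 1e9 (n = 5), by 36.2 ± 20.8 at 2.5e8 (n = 5) and by 23.1 ± 6.29 in mRBC-CTRL mice (n = 4). The ranges overlapped, and the change at 1e9 differed from that in mRBC-CTRL mice by -8.04 points (exact permutation test, p = 0.310) and from that at 2.5e8 by -21.1 points (p = 0.0794). With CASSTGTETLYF kept in the denominator, the difference from mRBC-CTRL mice turned to 7.86 points (exact permutation test, p = 0.278) and that from 2.5e8 was -11.0 points (p = 0.278). This denominator differs greatly between groups. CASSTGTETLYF made up 0.737% to 5.28% of productive templates in tumors at 1e9, 7.60% to 49.1% at 2.5e8 and 50.0% to 79.4% in mRBC-CTRL mice. On the log2 odds scale, where the odds are OT-1 over other templates, the change was 1.10 ± 0.97 at 1e9, 3.73 ± 0.93 at 2.5e8 and 3.46 ± 0.34 in mRBC-CTRL mice. There the 1e9 mice, from -0.074 to 2.37, did not overlap with the 2.5e8 mice, from 2.68 to 5.20, nor with the mRBC-CTRL mice, from 2.99 to 3.73. The differences were -2.63 from 2.5e8 (exact permutation test, p = 0.00794, adjusted p = 0.0476) and -2.37 from mRBC-CTRL (p = 0.0159, adjusted p = 0.0476), adjusted over 6 comparisons of OT-1 share on either scale and of clonality.

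Tumor and blood of the same mouse shared many endogenous clones, and those of different mice shared almost none. Identical nucleotide rearrangements in tumor and blood numbered 126 in mouse 1, 33 in mouse 2, 107 in mouse 3, 131 in mouse 4 and 42 in mouse 5. The 20 pairings of a tumor with the blood of another mouse had 1 to 11 (median 2). The highest of these joined tumor 2 with the blood of mouse 1, and the pairings without tumors 2 and 5 had 1 to 6. No other assignment of the 5 tumors to the 5 blood libraries gave as high a mean as 87.8 (exact test over 120 pairings, 1-sided, p = 0.00833, the smallest they can give). Without rearrangements held at a higher share by another mouse the mean was 86.6 (same exact test, p = 0.00833). Leaving them out removes nearly all sharing between mice by design. That p is therefore no separate check, and only the small change of the mean within mice is informative.

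**Figure D2:**
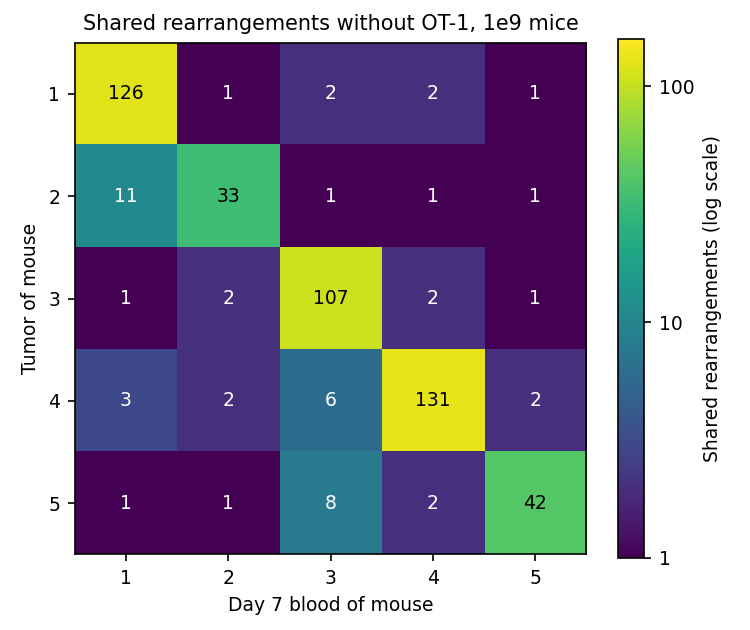
Number of identical endogenous rearrangements in each tumor (rows) and each day 7 blood library (columns) of the 5 mice at 1e9; colour is on a log scale. The pairs from the same mouse, on the diagonal, hold 33 to 131, all other pairs 1 to 11.

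The shared rearrangements were few by number but large by size. They were 4.41% to 16.4% of the rearrangements of a tumor and held 64.8% of endogenous tumor templates in mouse 1, 32.9% in mouse 2, 80.4% in mouse 3, 63.6% in mouse 4 and 52.6% in mouse 5. In the blood they held 16.0% to 32.0% of endogenous templates. Of the 10 largest endogenous rearrangements of each tumor, 45 of 50 were found in the blood, and 28 ranked among the 10 largest there with ties counted in. The share was higher in the tumor for 48, a direction favoured by picking them by size in the tumor. Tumor 2, with the lowest share held in common, had 7 of its 10 in the blood. The Morisita-Horn index, which is 0 for repertoires without overlap and 1 for identical ones, was 0.256, 0.319, 0.591, 0.336 and 0.731 in mice 1 to 5.

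When every library was drawn down to 482 templates, tumor and blood of a mouse at 1e9 shared 24.7 ± 4.96 rearrangements (SD, n = 5, from 17.1 to 30.7). The same measure was 10.5 ± 2.74 in mRBC-CTRL mice (SD, n = 4), and the groups did not overlap (exact permutation test, p = 0.0159, adjusted p = 0.0476 over 6 comparisons). The Morisita-Horn index averaged 0.446 ± 0.204 at 1e9 and 0.128 ± 0.0671 in mRBC-CTRL mice (exact permutation test, p = 0.0159, adjusted p = 0.0476). At 2.5e8 the values were 18.5 ± 3.48 shared rearrangements (adjusted p = 0.127, exact permutation test) and an index of 0.359 ± 0.0978 (adjusted p = 0.679). The share of tumor templates in rearrangements found in the blood was 58.9% ± 17.5 at 1e9, 56.8% ± 6.08 in mRBC-CTRL mice and 64.2% ± 14.2 at 2.5e8, and differed by less than the spread between mice (adjusted p = 0.817 and 0.724, exact permutation test).

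Pre-treatment (day 0) blood, drawn minutes after the OT-1 transfer, was at hand for mice 2 to 5 and was compared after the other values had been seen. The rearrangements of the tumor that were also in day 0 blood numbered 5, 5, 27 and 20, against 33, 107, 131 and 42 in day 7 blood. They held 5.29%, 0.867%, 27.5% and 4.34% of endogenous tumor templates, against 32.9%, 80.4%, 63.6% and 52.6%. At the same number of templates in each mouse, day 7 blood shared more rearrangements with the tumor than day 0 blood in 4 of 4 mice, by 53.2 on average (exact sign-flip test, p = 0.125, the smallest that 4 pairs allow). The Morisita-Horn index with day 0 blood was at most 0.0237. Most clones that tumor and blood had in common on day 7 were thus not counted in the day 0 libraries, which held 3016 to 6295 endogenous templates.

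Endogenous rearrangements were distributed less evenly in the tumor than in the blood of every mouse. Clonality, which is 0 when all rearrangements are equal in size and approaches 1 when a single one dominates, was computed at 482 templates per library. In tumor and blood it was 0.188 and 0.0133 in mouse 1, 0.0998 and 0.0551 in mouse 2, 0.203 and 0.0547 in mouse 3, 0.182 and 0.0411 in mouse 4, and 0.237 and 0.0890 in mouse 5. The lowest tumor lay above the highest blood library, although mouse 2 showed a smaller gap than the other 4. The difference was 0.131 ± 0.0502 (SD, n = 5, 2-sided exact sign-flip p = 0.0625, the smallest possible), and the tumor was higher in 5 of 5 mice. Without rearrangements held at a higher share by another mouse it was 0.132 ± 0.0494 (exact sign-flip test, p = 0.0625).

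The same contrast appeared in plain counts. At 482 templates, 145 to 260 rearrangements were expected in a tumor and 285 to 431 in a blood library. The 10 largest held 47.5%, 31.1%, 52.9%, 44.8% and 48.5% of endogenous tumor templates in mice 1 to 5, against 7.70%, 18.6%, 20.1%, 15.9% and 23.2% in blood. At full depth, 50% of the endogenous tumor templates lay in 13, 51, 9, 16 and 12 rearrangements. In blood that number was 807, 225, 517, 770 and 66, the last in the shallow library of mouse 5. The rise of clonality from blood to tumor was 0.205 ± 0.0874 in mRBC-CTRL mice and 0.207 ± 0.0782 at 2.5e8. The rise at 1e9 differed from these by -0.0737 and -0.0753, within the spread between mice (exact permutation test, adjusted p = 0.133 for both). At full depth, where the libraries differ in size, the clonality difference was -0.148 from mRBC-CTRL mice and -0.125 from 2.5e8 (exact permutation test, p = 0.00794 and 0.0317, not adjusted). The effective number of rearrangements at 482 templates (the number of equally sized ones with the same entropy) changed by -197 ± 87.0 from blood to tumor at 1e9 and by -370.1 ± 35.6 in mRBC-CTRL mice. These changes did not overlap (exact permutation test, p = 0.0159, not adjusted), and against 2.5e8 p was 0.0952. The change in the share of the 10 largest at full depth, 27.8 points at 1e9 and 44.1 in mRBC-CTRL mice, had p = 0.0317 (exact permutation test, not adjusted).

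**Figure D3:**
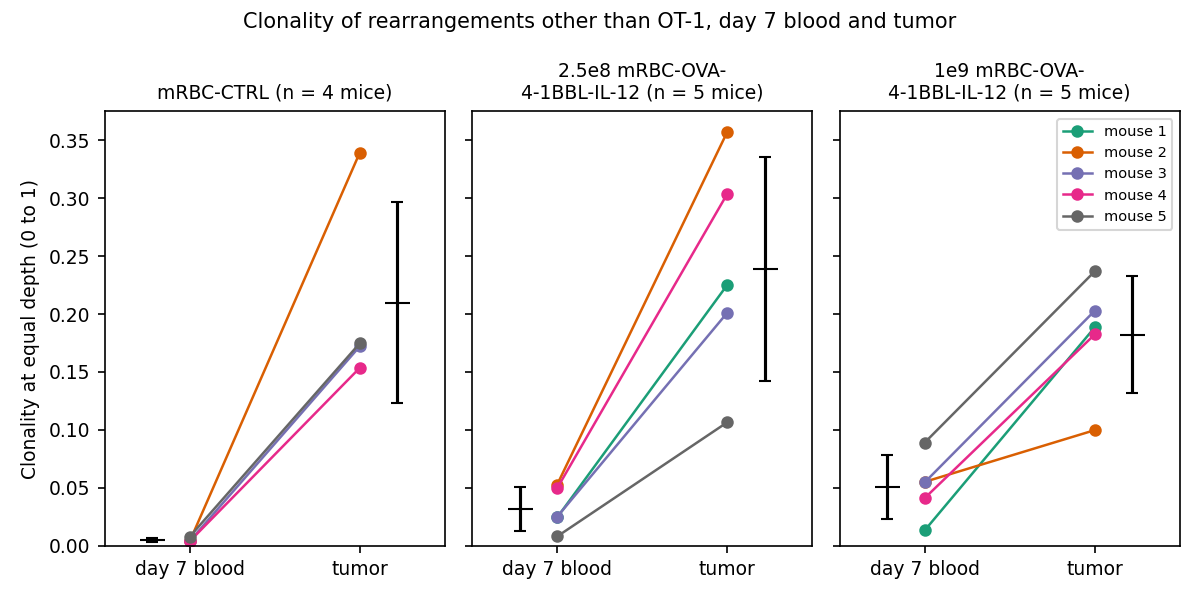
Clonality of endogenous rearrangements at 482 templates (y axis, from 0 to 1) in day 7 blood and tumor, with a line per mouse and a panel per group; black bars are mean ± SD. All lines rise from blood to tumor; at 1e9 the means are 0.0507 in blood and 0.182 in tumors.

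Single rearrangements were compared between tumor and blood of a mouse by Fisher's exact test, for those with at least 5 templates in both libraries together, 423 in all. Of these, 158 (37.4%) had a higher share of endogenous templates in the tumor and 38 (8.98%) had a higher share in the blood, at an adjusted p under 0.05 within the mouse. The numbers higher in tumor and in blood were 43 and 5 of 86 in mouse 1, 11 and 3 of 28 in mouse 2, 49 and 16 of 98 in mouse 3, 51 and 11 of 138 in mouse 4, and 4 and 3 of 73 in mouse 5. Mouse 5, with the shallow blood library, had the fewest calls for the number tested. With OT-1 templates kept in the library totals, 101 were higher in tumor and 87 in blood, so the balance of the calls rests on OT-1 being left out. Such a test compares the 2 libraries of a mouse and not conditions. No CDR3 was called higher in the tumor of more than 1 mouse. Mice shared few rearrangements to begin with (median 2 between a tumor and the blood of another mouse). The share of all tested CDR3s that recurred between mice was not computed, so this is not read as a trait of those called.

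The clones called higher in the tumor held 60.9%, 27.6%, 75.9%, 53.7% and 37.2% of endogenous tumor templates in mice 1 to 5, and 8.53%, 1.38%, 22.8%, 6.35% and 14.1% of endogenous blood templates. The direction of this contrast follows from how the clones were called, so these sums only describe their size. Of the 158, 95 were found in both libraries. The other 63 had 0 templates in blood and so met the minimum of 5 templates through the tumor alone. Likewise, 21 of the 38 called higher in blood had 0 templates in the tumor and met it through the blood alone. All 158 together carried a median of 3 N bases, as did all that were tested, and 8.23% had no N base, against 8.04%. TCRBJ02-07, the J segment that OT-1 also uses, was present in 32.9% of those higher in tumor, 36.8% of those higher in blood and 27.4% of all tested.

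**Figure D4:**
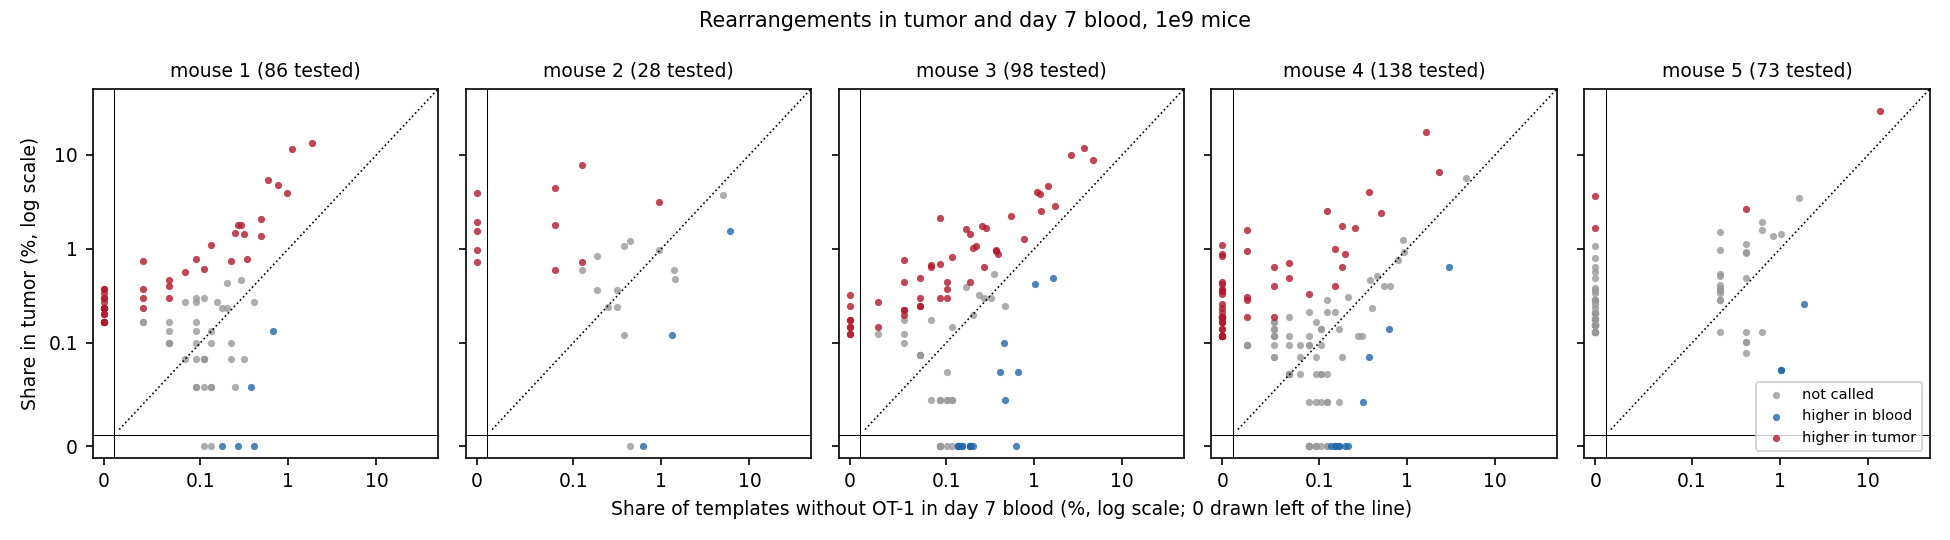
Share of endogenous templates of each tested rearrangement in day 7 blood (x axis, %) and in the tumor (y axis, %), both on log scales with 0 drawn beyond the solid line, in 5 panels for the 5 mice; the dotted line marks equal shares. Points called higher in tumor (158, red) lie above the line and those higher in blood (38, blue) below it.

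The largest endogenous clone of the tumor was also found in the blood of all 5 mice, with a higher share in the tumor each time. These clones were picked by their size in the tumor, which favours that direction and a small p in the tests below. In mouse 1, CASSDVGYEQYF had 398 templates in the tumor (13.4%, 95% interval 12.2% to 14.7%) and 83 in the blood (1.85%, upper bound 2.29%), and was the largest in both. In mouse 2, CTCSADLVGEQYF had 65 templates in the tumor (7.81%) and 2 in the blood (0.125%), a ratio of 62.3 with a counting interval of 16.6 to 525. In mouse 3, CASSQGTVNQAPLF had 480 templates in the tumor (11.9%) and 216 in the blood (3.63%), where it ranked 2nd. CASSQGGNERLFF of mouse 4 showed a wide gap on many templates, with 738 in the tumor (17.4%) and 107 in the blood (1.63%), or 10.7-fold (counting interval 8.73 to 13.2). In mouse 5, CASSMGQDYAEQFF had 1131 templates in the tumor (29.2%) and 66 in the blood (13.7%), was the largest in both and had no N base. All 5 passed Fisher's exact test (adjusted p from 4.09e-199 to 2.24e-12). In the day 0 blood of mice 2 to 5, only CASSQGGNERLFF was counted, with 2 templates.

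The largest endogenous clone of the blood was not always one of those. In mouse 2, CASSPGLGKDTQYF (TCRBV04-01 and TCRBJ02-05) had 97 templates in the blood (6.08%) and 13 in the tumor (1.56%), 3.89-fold higher in blood (counting interval 2.17 to 7.57; Fisher's exact test, adjusted p = 2.91e-07). In mouse 3, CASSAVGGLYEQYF (TCRBV04-01 and TCRBJ02-07) was the largest in blood, with 274 templates (4.61%), and still had the higher share in the tumor, with 355 (8.79%; adjusted p = 1.09e-15). In mouse 4 the largest in blood joined TCRBV13-03 to TCRBJ02-04, with 305 templates in blood (4.64%) and 238 in the tumor (5.61%), and did not pass the test (Fisher's exact test, adjusted p = 0.0529). The clone that led the blood thus had the higher share in the tumor in 4 mice, without passing in mouse 4, and the lower share in mouse 2.

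Most large tumor clones could be traced in the blood. Rearrangements with at least 0.5% of endogenous tumor templates numbered 18, 19, 27, 23 and 20 in mice 1 to 5, 107 in all, and 93 of them had at least 1 template in the day 7 blood. The other 14 had 0: none in mouse 1, 5 in mouse 2, none in mouse 3, 3 in mouse 4 and 6 in mouse 5. They held 9.13%, 2.83% and 8.39% of endogenous tumor templates in mice 2, 4 and 5. A count of 0 allowed a share of up to 0.188% in blood 2, 0.0456% in blood 4 and 0.622% in blood 5. The bound of 0.5% itself places every such clone of mice 2 and 4 above the limit in the tumor. Only in mouse 5 could a clone fall below it, and there 5 of the 6 exceeded it. In mouse 5 the limit was high, and 2 of the 6 did not reach an unadjusted p under 0.05 (Fisher's exact test, p = 0.103 and 0.163). Only 2 rearrangements of mouse 5 with 0 templates in blood were called higher in the tumor at an adjusted p under 0.05. With a bound of 1% in place of 0.5% the number was 7, and with 0.2% it was 163. The bound of 0.2% lies below the limit of 0.622% in blood 5. In tumor 2 it also lies below 0.361%, the share of 3 templates.

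Among the tumor-only clones, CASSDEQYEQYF of mouse 2 had 33 templates in the tumor (3.97%) and 0 in the blood, or 21.1 times the blood limit. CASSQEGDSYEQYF of mouse 4 had 47 templates (1.11%) against 0, or 24.3 times the limit. It is the best measured of them, since the blood held 6579 endogenous templates, but the same rearrangement was present in 1 other library of the series. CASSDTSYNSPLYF of mouse 5 had 141 templates (3.64%) against 0, or 5.85 times the limit, and its rearrangement was present in 8 other libraries of the series. These multiples leave out the counting error of the tumor share. TCRBJ02-07 was used by 10 of the 14 and by 23 of the 93 large clones that were found in blood, or 33 of all 107. Of the 10, 5 came from mouse 2, where 52.6% of large clones used it, against 22.2% to 29.6% in the other mice. None of the 14 met the rule for rearrangements derived from OT-1 (the same last 30 bases or at most 3 edits), and their CDR3 lengths and V segments varied, with TCRBV13 in 5. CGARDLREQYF of mouse 5, absent from day 7 blood, had 2 templates in day 0 blood.

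V and J use of the endogenous templates varied widely from tumor to tumor, and no segment passed the test between tumor and blood when weighted by templates. None of 21 V segments and none of 12 J segments passed an adjusted p under 0.05 in edgeR's quasi-likelihood test with the mouse as a block (0% called in both; 2 V and 2 J segments had an unadjusted p under 0.05). TCRBV19-01 was the most used V segment on average and ranged from 5.89% to 42.5% in tumors and from 5.20% to 20.5% in blood; 68.7% of its templates in tumor 5 were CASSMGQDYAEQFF. TCRBV05-01 reached 20.5% in tumor 4, where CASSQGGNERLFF made up 84.7% of it, and TCRBV13-03 reached 16.6% in tumor 1, where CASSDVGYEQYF made up 80.7%. A single clone thus made up 68.7% to 84.7% of the leading V segment in tumors 1, 4 and 5. In tumor 3, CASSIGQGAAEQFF made up 53.3% of TCRBV19-01, and in tumor 2 the largest clone made up 30.1% of TCRBV13-02.

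The V segments with the largest fitted changes were all lower in tumors, without passing the test. TCRBV15-01 made up 1.70% ± 0.871 of tumor and 2.94% ± 0.528 of blood templates, lower in 5 of 5 mice (log2 fold change -0.91, SE 0.38, edgeR adjusted p = 0.198). TCRBV04-01 had a log2 fold change of -0.89 (SE 0.37, adjusted p = 0.198) and was lower in 3 of 5 mice, from 0.740% to 10.6% in tumors. TCRBV14-01 had -0.75 (SE 0.38, adjusted p = 0.291). The median over the 21 V segments was itself -0.45, and TMM scaling shifted V segments by 0.39 and J segments by 0.25 (medians), with 0 called. Counted once per rearrangement, so that large clones weigh no more than small ones, 4 V segments passed: TCRBV13-02 was higher in tumors (0.30), as was TCRBV12-01 (0.32), and TCRBV02-01 (-0.38) and TCRBV31-01 (-0.42) were lower (log2 fold changes, edgeR adjusted p from 0.0277 to 0.0397). With OT-1-derived rearrangements also left out, TCRBV13-02 alone still passed (0.31, adjusted p = 0.0240). Weighted by templates, TCRBV13-02 (-0.45) and TCRBV12-01 (-0.55) were instead lower in tumors and TCRBV02-01 (0.22) was higher. TCRBV31-01 was lower by both counts (-0.42 by templates). None of them passed when weighted by templates.

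Among J segments, TCRBJ02-07 was the most used in 4 of 5 tumors and in all blood libraries, with 39.9%, 44.8%, 28.5%, 24.7% and 20.8% of endogenous tumor templates in mice 1 to 5 and 25.6%, 30.2%, 28.0%, 23.3% and 28.0% in blood. It had a higher share in tumors 1 and 2 than in any blood library and the lowest in tumor 5, where TCRBJ02-01 led with 38.7%. TCRBJ01-01 was lower in the tumor in 5 of 5 mice (5.02% ± 1.93 against 7.66% ± 1.11; log2 fold change -0.67, SE 0.25, edgeR adjusted p = 0.157). TCRBJ02-05 was also lower in 5 of 5 (-0.55, SE 0.22, adjusted p = 0.157), as was TCRBJ02-04 (-0.48, SE 0.24, adjusted p = 0.270).

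**Figure D5:**
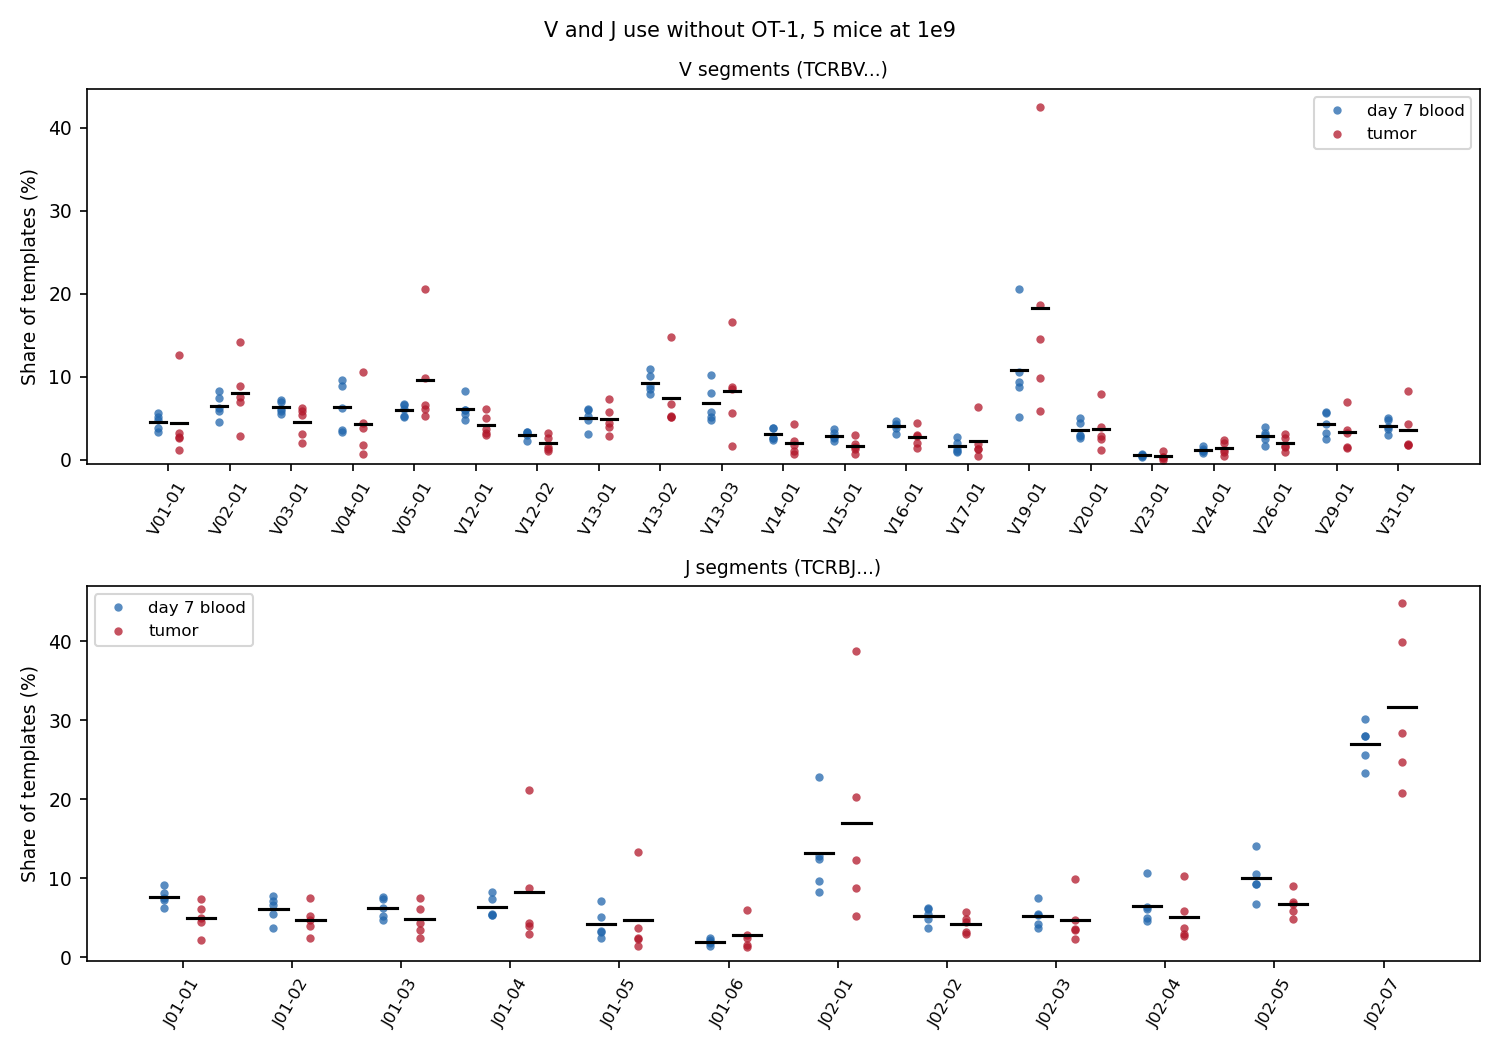
Share of endogenous templates (y axis, %) by V segment (top) and J segment (bottom) in the 5 blood and 5 tumor libraries at 1e9; points are mice and bars are means. Tumors spread more widely than blood for TCRBV19-01 (5.89% to 42.5%) and TCRBJ02-01 (5.21% to 38.7%).

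CDR3 length and N insertion did not differ between tissues beyond the spread between mice when weighted by templates. Weighted by templates, CDR3 averaged 13.7 amino acids ± 0.247 in tumors and 13.8 ± 0.0705 in blood (n = 5, exact sign-flip test, p = 0.938), and N insertions 3.10 bases ± 0.429 and 3.27 ± 0.131 (p = 0.375). The share of templates without N bases was 9.75%, 11.1%, 6.47%, 7.36% and 33.1% in tumors and 9.46%, 8.34%, 8.48%, 8.62% and 20.7% in blood. Mouse 5 was the highest in both tissues, and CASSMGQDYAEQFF, which has no N base, held 29.2% and 13.7% of its templates there. Counted once per rearrangement, CDR3 was longer in the tumor in 5 of 5 mice, by 0.118 amino acids ± 0.0295 (exact sign-flip test, p = 0.0625, the smallest possible), and by 0.0992 at 2.5e8 and 0.102 in mRBC-CTRL mice. N insertions counted in this way were higher in the tumor in 4 of 5 mice, by 0.193 bases ± 0.169 (exact sign-flip test, p = 0.125). The mean change was 0.122 bases at 2.5e8 and 0.181 in mRBC-CTRL mice.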

How the data were processed

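Genomic DNA of blood and tumor was amplified in a bias-controlled multiplex PCR of TCRβ CDR3 (immunoSEQ), sequenced, collapsed and filtered by the authors, who used the ImmunoSEQ analyzer of Adaptive Biotechnologies for their analysis. They deposited a count of templates per nucleotide rearrangement, not normalized; in 81 of 81 libraries it equalled the estimated number of genomes. CDR3 length and N insertions are other values of the deposited tables, in bases. The genome build is not given in the sources used here. No reads were processed.

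Productive rearrangements were kept. OT-1 was the CDR3 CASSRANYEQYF; it and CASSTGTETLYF were left out to give endogenous rearrangements. Clonality was 1 minus normalized Shannon entropy, in expectation over 482 templates drawn without replacement, the number in the shallowest day 7 library. Changes within mice were tested with exact sign-flip tests, changes between doses with exact permutation tests, and own against other pairs over all 120 pairings. Single rearrangements with at least 5 templates were tested with 2-sided Fisher's exact tests, adjusted by Benjamini-Hochberg within the mouse. V and J counts were fitted with edgeR 4.0.16 (quasi-likelihood, mouse as block, total endogenous templates as library size, segments with at least 10 templates in at least 5 libraries, p-values adjusted over the segments of a kind), with DESeq2 1.42.0 as an alternative; both were run in R, the rest in Python with scipy 1.17.1. Each procedure was tested on simulated data.

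Tumor and blood with the same number come from the same animal by their labels, so pairs were tested as such. Mice of different groups share numbers only. Named are OT-1, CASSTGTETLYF, the largest endogenous clone of each tumor, blood and tumor-only set, and the 3 V and J segments with the largest fold change where none passed; other clones and segments were named after their values were seen. The members, lists and tests were chosen with earlier results of these data known. The labels do not say whether libraries were prepared together, and each animal gave 1 library per tissue, so the spread includes technical error. Alternatives covered denominators, scales, depth, clone definition, low counts, thresholds, error-like rearrangements, pairing and each mouse left out; leaving out OT-1-derived rearrangements (the same last 30 bases or at most 3 edits) and those held at a higher share by another mouse was added after the data were examined.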

Additional observations from a re-analysis of the deposited data

Results flagged for a closer look

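With 5 mice per group, a value set far from the other 4 was looked for in 39 sets of values, and chance flags about 1 in 20 of such sets. The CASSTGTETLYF count of 1374 templates in tumor 4 lay far above the 95 to 273 of the other tumors. The share of templates without N bases in mouse 5 was 33.1% in the tumor (6.47% to 11.1% in the others) and 20.7% in blood (8.34% to 9.46%). The rise of clonality from blood to tumor was 0.0446 in mouse 2, below the 0.141 to 0.175 of the others; tumor 2 had the fewest endogenous templates of the tumors (832). The change of CDR3 length in mouse 1, weighted by templates, was -0.456 amino acids, against -0.0136 to 0.108 in the others.

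In 4 tests the 1e9 mice differed from another group. The change of OT-1 share from blood to tumor on the log2 odds scale was lower by 2.37 (-2.37) than in mRBC-CTRL mice (exact permutation test, p = 0.0159) and by 2.63 (-2.63) than at 2.5e8 (p = 0.00794), each with an adjusted p of 0.0476. Neither difference passed in percentage points. Rearrangements shared by tumor and blood at equal depth were more by 14.2 than in mRBC-CTRL mice, and the Morisita-Horn index was higher by 0.319 (exact permutation test, p = 0.0159 and adjusted p = 0.0476 for both). The blood libraries of the groups also differed in clonality (0.0507 at 1e9 and 0.00473 in mRBC-CTRL mice); its part in the difference was not tested.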

How the results depend on the processing

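The higher clonality of tumors and the excess of rearrangements shared within a mouse kept their direction under all alternatives run. For shared rearrangements, leaving out those held at a higher share by another mouse could hardly have changed it, since this removes sharing between mice. As unpaired samples (no replicate block), the OT-1 difference of 15.1 points had p = 0.0476 and the clonality difference of 0.131 had p = 0.00794 (exact permutation test); without the block 0 V and 0 J segments passed, and CDR3 length (-0.059), N insertions (-0.17) and the share without N bases (2.42) still did not pass. The change of OT-1 share against mRBC-CTRL mice was -2.37 in log2 odds (p = 0.0159), -2.74 in log2 share (p = 0.00794) and reversed to 7.86 points with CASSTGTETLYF kept in (p = 0.278); against 2.5e8 it was -2.63 and -2.60 (both p = 0.00794, exact permutation test). Pairing equal mouse numbers of different groups (replicate block), although the animals differ, the changes were -7.17 points against mRBC-CTRL mice (p = 0.5) and -21.1 against 2.5e8 (p = 0.188, exact sign-flip test), and neither call changed. With OT-1 in the totals, 101 rearrangements were higher in tumor and 87 in blood, and the TCRBV13-03 and TCRBJ02-04 clone of mouse 4 reversed to -1.44 points. Without rearrangements of 1 template, the OT-1 difference was 7.86 ± 12.2 points. Tumor-only clones numbered 163 at 0.2% and 7 at 1%. Counted once per rearrangement, CDR3 length (0.118 amino acids), N insertions (0.193 bases) and the share without N bases (-0.246 points) reversed in sign without passing, and 4 V segments passed, or 1 without OT-1-derived rearrangements; the cause was not tested. TCRBJ02-04 reversed to 0.039 (log2) without the 10 largest rearrangements of each library.

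Leaving out each mouse in turn gave OT-1 differences of 10.2 to 19.1 points, from -12.9 to -4.06 against mRBC-CTRL mice and from -26.0 to -17.1 against 2.5e8; the last passed without mouse 4 (p = 0.0476, exact permutation test). Clonality differences were 0.120 to 0.153, and shared rearrangements 77 to 101.5 per mouse (exact test over pairings, p = 0.0417 with 4 mice). Rearrangements higher in tumor numbered 107 to 154 and those higher in blood 22 to 35, the lowest without mouse 3. Tumor-only clones numbered 8 (without mouse 5) to 14, and 9 without mouse 2. CDR3 length ranged from -0.101 to 0.040 amino acids, turning positive without mouse 1, N insertions from -0.239 to -0.039 bases, and the share without N bases from -0.067, without mouse 5, to 3.52 points. V and J calls stayed at 0. With 4 pairs the sign-flip test cannot go below 0.125. Depth limits what blood can show, most of all in mouse 5 (482 endogenous templates).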

Other observations

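Beside its main rearrangement, which held 99.3% to 99.7% of the OT-1 templates of each of the 10 libraries, the OT-1 CDR3 was read from 12 to 34 further rearrangements per library. Some of these carried V segments other than TCRBV12, with 2 to 28 templates per library. Endogenous templates held 1 to 7 further templates per library that met the rule for rearrangements derived from OT-1 or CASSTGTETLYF.

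Non-productive rearrangements made up 6.60% to 11.4% of templates in tumors and 10.2% to 21.5% in blood, with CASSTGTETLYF left out but OT-1 kept in the total. The highest value was in blood 4, which had the lowest OT-1 share (48.1%), and the lowest in tumor 2, which had the highest (87.1%). In mouse 5, with similar OT-1 shares, tumor and blood both had 10.2%. The part of OT-1 in the difference between tissues was not tested. CDR3 sequences encoded by more than 1 endogenous rearrangement were 6.98% to 10.04% of those in tumors and 3.70% to 6.37% of those in blood, and held 22.0% to 55.6% and 13.1% to 26.1% of endogenous templates. These counts were made at full, unequal depth with rearrangements of 1 template included. The CDR3 of the single OT-1 receptor was itself read from 12 to 34 further rearrangements per library. How far clone size accounts for the difference between tissues was not tested.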
